A study of Mus musculus with 4 samples.

Results

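The MHC class II group examined here consists of 9 genes, taken by symbol from the 27998 genes of the deposited matrices. H2-Aa and H2-Ab1 encode the alpha and beta chains of the class II molecule I-A, and H2-Eb1 encodes the beta chain of I-E. Cd74 is the invariant chain, which occupies the groove of a new class II molecule and guides it to endosomes. H2-DMa, H2-DMb1 and H2-DMb2 encode chains of DM, which removes the last piece of Cd74 and loads peptide. H2-Oa encodes a chain of DO, an inhibitor of DM, and Ciita is the transcriptional co-activator on which expression of the others depends. All 9 were found in the gene table, and each was read by cell type and by treatment, as a level and as the share of cells with at least 1 count.

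The cells came from malignant pleural effusions, fluid that gathers around the lung, raised in C57BL/6 mice with the Lewis lung carcinoma line. There were 4 libraries of droplet single-cell RNA sequencing, in which each RNA molecule is counted once by its unique molecular identifier (UMI). All mice received 1 treatment into the pleural cavity on day 11, and the fluid was taken on day 13, 48 h later. The treatments were LNP-cGAMP (1 µg, called LNP-CDN in the series design), a nanoparticle carrying the STING agonist cGAMP; the anti-PD-L1 antibody 10F.9G2 (30 µg); both agents at these doses (the combination below); and PBS, the vehicle. Each library pooled the cells of 3 mice, so every treatment has 1 library, no difference between treatments has a replicate check, and no p-value is given. Red cells had been lysed and nothing was sorted, so a level belongs to the cells that were gated and not to the whole effusion.

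Professional antigen-presenting cells, namely dendritic cells, B cells and some macrophages, show peptides to CD4 T cells on class II molecules. Dendritic cells and B cells hold Ciita on from their own promoters, whereas in macrophages it is switched on mainly by interferon gamma. The protein Ciita does not bind DNA itself. It sits on a complex of RFX, CREB and NF-Y factors that is assembled on an X box and a Y box just upstream of the class II genes. C57BL/6 mice lack a working I-E alpha chain gene, so that H2-Eb1 RNA in these cells does not stand for I-E protein at the surface.

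In GRCm38, the assembly that the submitters' mm10 names, 7 of the 9 genes lie within the class II region of chromosome 17, from H2-Oa (34092340 to 34095234) to H2-Eb1 (34305867 to 34316674). Ciita lies on chromosome 16 (10480059 to 10528418), and Cd74 lies on another chromosome again. RefSeq promoter windows (GRCm38.p6) were matched for 6 of the 9 by symbol. H2-Ab1, Cd74 and Ciita had no entry. The 130 bases before the start are shown for 3 members that were measured together here, since the shared boxes are what Ciita acts through. Capitals mark GATGATG (within the X box), GATTGG (the Y box core, read as CCAATC on the other strand) and TGACGTCA (a CREB-type site, which reads the same on both strands); H2-Aa is on the minus strand and all are written 5′ to 3′ of the gene.
H2-Eb1, chr17:34305737-34305866, plus strand: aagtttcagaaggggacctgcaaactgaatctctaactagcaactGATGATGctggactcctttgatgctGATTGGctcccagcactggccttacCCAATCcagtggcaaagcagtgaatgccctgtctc
H2-Aa, chr17:34287824-34287953, minus strand: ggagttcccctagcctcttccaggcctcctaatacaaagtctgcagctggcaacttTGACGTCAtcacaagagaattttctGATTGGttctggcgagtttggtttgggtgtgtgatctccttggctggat
H2-DMb2, chr17:34145119-34145248, plus strand: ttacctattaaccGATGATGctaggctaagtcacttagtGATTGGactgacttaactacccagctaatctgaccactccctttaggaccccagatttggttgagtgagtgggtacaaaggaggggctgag
The letters GATTGG were present in the windows of 5 members (H2-Aa, H2-Eb1, H2-DMb1, H2-DMb2 and H2-Oa), against 10.1% of 32817 promoter windows of equal length on either strand. GATGATG was present in 3 (H2-Eb1, H2-DMb1 and H2-DMb2), against 1.57% of windows, and both together in the same 3, against 0.152%. TGACGTCA was in 1.3% of windows. In H2-DMb1 and H2-DMb2 the first bases of the pair lie 26 bases apart and in H2-Eb1 25 bases apart. Neither window of H2-DMa, which has entries for 2 starts, held any of these letters. The motifs were chosen after the sequences had been read, and a match describes letters, not a bound site.

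The libraries held 68828158 (LNP-cGAMP), 87696440 (anti-PD-L1), 88855120 (combination) and 86269137 (PBS) UMIs, and 3839, 3399, 3523 and 2837 cells were kept in that order, 13598 in all, with library medians of 16423 to 18736 UMIs per cell. Cell types were taken as per-cell gates on marker genes, none of them a class II gene. Of the cells with a sex call, from a Y-linked gene or Xist, 0.185% (LNP-cGAMP), 68.1% (anti-PD-L1), 78.5% (combination) and 0.948% (PBS) were female, so that the anti-PD-L1 and combination pools hold mice of both sexes and sex is tied to treatment. No doublets were removed. Of the barcodes kept, 34 occurred in more than 1 library (14 of them in all 4), holding 99 cells, and without these cells no count of members below differed by more than 1.5 times. Levels are UMIs of a gene per 1000000 UMIs of the gated cells of a library (CPM). Intervals are exact 95% intervals that cover counting error and not the variation between mice. A member is called higher or lower at 1.5-fold on log2((CPM + 10)/(CPM + 10)), which shrinks the ratios of low genes. Only genes that reached 20 UMIs in total and 50 CPM in some library were called, and only in gates with 20 cells or more on both sides.

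Class II levels were highest in dendritic cells in every library, apart from H2-DMb2. The gate (at least 1 dendritic marker such as Flt3, Zbtb46, Xcr1 or Clec9a, and low macrophage markers) held 38 cells in LNP-cGAMP, 63 in anti-PD-L1, 43 in the combination and 73 in PBS. H2-Ab1 stood at 6633 CPM in LNP-cGAMP, 5544 CPM in anti-PD-L1, 5780 CPM in the combination and 7321 CPM in PBS. H2-Aa and H2-Eb1 lay in the same range, between 5326 and 10445 CPM, and Cd74 was the most abundant member at 17928 to 24675 CPM. Between 84.2% and 95.9% of dendritic cells had an H2-Ab1 UMI. In PBS the level of H2-Ab1 in dendritic cells was 10.3-fold that in Vcan/Ccr2 cells (95% interval 9.93 to 10.7), and in LNP-cGAMP it was 40.4-fold (37.1 to 44.0), a wider gap in which the LNP-cGAMP Vcan/Ccr2 level was the low term.

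The remaining gates followed in the order B cells, then Saa3-high and Vcan/Ccr2 cells, then Lyve1-high cells, with exceptions. B cells (15, 36, 23 and 16 cells in LNP-cGAMP, anti-PD-L1, the combination and PBS) had H2-Ab1 at 2412, 2287, 1628 and 1029 CPM in that order. Vcan/Ccr2 cells, which carry markers of recruited monocytes, had 164 CPM in LNP-cGAMP, 620 CPM in anti-PD-L1, 369 CPM in the combination and 710 CPM in PBS. Saa3-high macrophages had 211, 1070, 329 and 681 CPM. Lyve1-high macrophages, the resident-type phagocytes, had 236, 340, 325 and 180 CPM, of which the LNP-cGAMP value rests on 15 cells. Saa3-high and Vcan/Ccr2 cells of PBS did not differ beyond counting error (ratio 0.959, 0.897 to 1.03), and in LNP-cGAMP the Vcan/Ccr2 cells were below the Lyve1-high cells (ratio 0.695, 0.564 to 0.864). All 9 genes had a higher level in dendritic than in Vcan/Ccr2 cells in all 4 libraries.

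**Figure D1:**
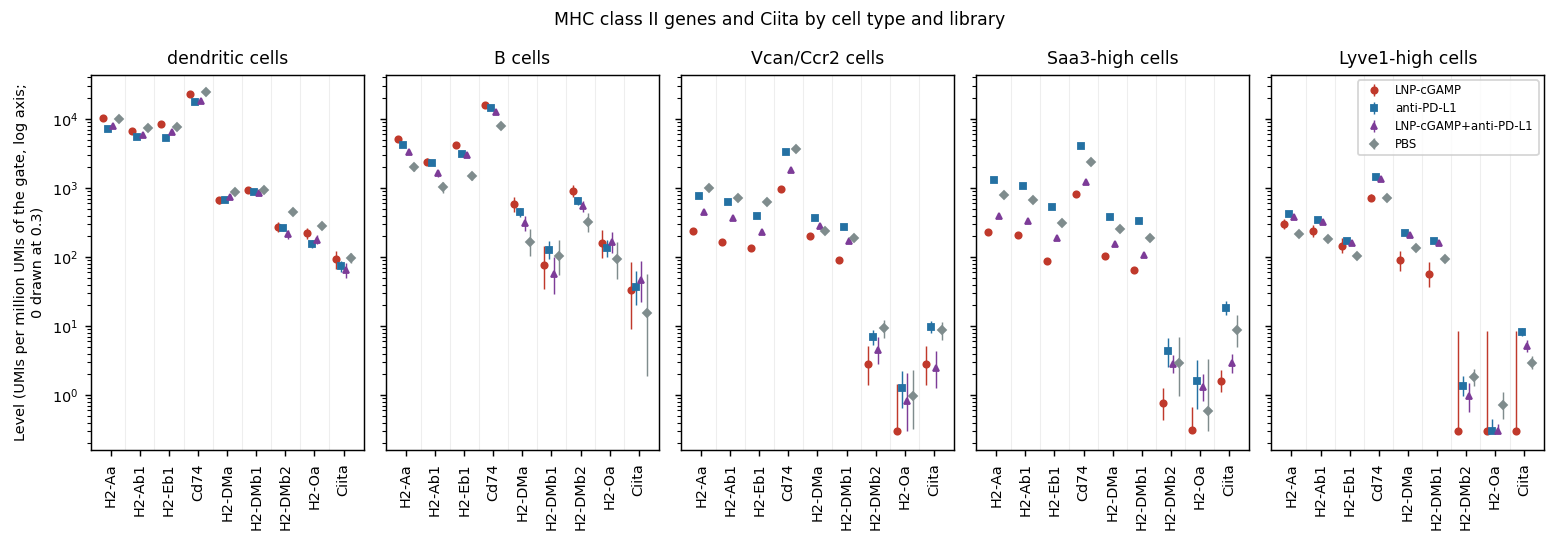
Level of each of the 9 genes (CPM of the gate, log axis) in 5 gated cell types, 1 marker per library, with exact 95% Poisson intervals that cover counting error only; values of 0 are drawn at 0.3. Dendritic cells lie highest for every gene except H2-DMb2, which is higher in B cells of the 3 treated libraries; H2-DMb2 and H2-Oa reach 100 CPM in dendritic cells and, in most libraries, in B cells but stay under 10 CPM in the 3 macrophage gates.

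Few cells carried much of the class II RNA. Dendritic cells made up 0.990% of LNP-cGAMP, 1.85% of anti-PD-L1, 1.22% of combination and 2.57% of PBS cells. They held 19.3% of all UMIs of the 9 genes in LNP-cGAMP cells, 12.6% in anti-PD-L1, 14.2% in the combination and 24.2% in PBS. For H2-Oa alone the dendritic share was 59.0% in LNP-cGAMP, 45.5% in anti-PD-L1, 50.3% in the combination and 67.8% in PBS. The dendritic gate was itself mixed: 76.3% of its cells in LNP-cGAMP, 79.4% in anti-PD-L1, 79.1% in the combination and 91.8% in PBS had more than 100 UMIs of the 9 genes per 10000 UMIs. Within it, cells with Xcr1 or Clec9a, markers of the cross-presenting subset, had H2-Ab1 at 9001 CPM in LNP-cGAMP (8 cells), 7870 CPM in anti-PD-L1 (25 cells), 8795 CPM in the combination (12 cells) and 8107 CPM in PBS (19 cells). Cells high in Ccr7, the receptor that takes mature dendritic cells to lymph nodes, had 4040 CPM (11 cells), 1977 CPM (16 cells), 3992 CPM (9 cells) and 1878 CPM (15 cells) in that order, lower than the Xcr1 or Clec9a cells in each library.

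H2-Oa, the DO chain, and H2-DMb2 followed cell type more closely than the other members. H2-Oa was at 222 CPM in LNP-cGAMP, 155 CPM in anti-PD-L1, 178 CPM in the combination and 283 CPM in PBS dendritic cells, and at 160, 136, 166 and 94.2 CPM in B cells. In the 3 macrophage gates it was at most 1.59 CPM in any library. H2-DMb2 had 270, 260, 213 and 447 CPM in dendritic and 916, 644, 544 and 322 CPM in B cells, against at most 9.27 CPM in the 3 macrophage gates. H2-DMb1 had the other pattern, with 930, 884, 857 and 950 CPM in dendritic cells, 75.6, 128, 56.8 and 102 CPM in B cells, and 57.4 to 329 CPM in the 3 macrophage gates. The number of H2-DMb1 UMIs per H2-DMb2 UMI was 0.198 (0.142 to 0.271) in anti-PD-L1, 0.104 (0.0524 to 0.189) in combination and 0.317 (0.156 to 0.604) in PBS B cells. It was 2.13 to 4.02 in dendritic cells and 20.4 to 166 in Vcan/Ccr2, Saa3-high and Lyve1-high cells where it could be taken. H2-DMb1 and H2-DMb2 are close copies of each other, and how shared reads were assigned between them is not given in the sources used here, so the split is uncertain.

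B cell levels could not be compared cleanly. The macrophage genes C1qa, C1qb and C1qc together stood at 168 CPM in LNP-cGAMP, 3231 CPM in anti-PD-L1, 4301 CPM in the combination and 8998 CPM in PBS B cells, and the summed class II level ran in the opposite order, with 297, 254, 216 and 132 UMIs of the 9 genes per 10000. The median over cells was closer, at 309 in LNP-cGAMP, 316 in anti-PD-L1, 304 in the combination and 235 in PBS. In the PBS gate the 10% of cells with most UMIs held 51.2% of its UMIs. Whether macrophage RNA sets the differences between the B cell sums was not tested. Cd74 ran at 6.67 UMIs per H2-Ab1 UMI in LNP-cGAMP, 6.33 in anti-PD-L1, 7.67 in the combination and 7.67 in PBS B cells, above the 3.17 to 3.45 of dendritic cells.

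In dendritic cells taken as one gate, most members were within 1.5-fold of PBS, while subsets of the gate and male-called anti-PD-L1 cells differed more. Under LNP-cGAMP, 0 of 9 genes were called higher and 1 lower, where 15.3% of all 3673 genes were called higher and 12.6% lower. Under anti-PD-L1, 0 were higher and 2 lower, against 6.15% and 3.32% of genes. Under the combination, 0 were higher and 2 lower, against 8.55% and 4.3%. The median log2 ratio of the 9 was -0.11 (LNP-cGAMP), -0.46 (anti-PD-L1) and -0.34 (combination), beside all-gene medians of 0.04, 0.02 and -0.01. Over the whole gate H2-DMb2 was lower in each: 270 CPM in LNP-cGAMP cells (log2 -0.70), 260 CPM in anti-PD-L1 cells (log2 -0.76) and 213 CPM in combination cells (log2 -1.03), against 447 CPM in PBS cells. H2-Oa was lower with anti-PD-L1 (log2 -0.83) and with the combination (log2 -0.64). In anti-PD-L1 dendritic cells H2-Oa differed by sex call, at 211 CPM in 41 female-called and 81.5 CPM in 17 male-called cells (2.59-fold, 1.85 to 3.70). In 59 male-called PBS cells it was at 281 CPM, within 1.5-fold of the female-called but not of the male-called anti-PD-L1 cells. H2-Ab1 in the female-called anti-PD-L1 cells was 1.42-fold (1.35 to 1.49) that of the male-called cells. Between male-called cells alone, H2-Ab1 was at 4336 CPM in anti-PD-L1 and 7049 CPM in PBS. H2-Aa was there at 4865 and 9623 CPM, Cd74 at 13280 and 23470 CPM, and H2-DMb2 at 167 and 427 CPM. H2-DMb1 differed least, at 730 and 940 CPM. The 17 cells are too few for a call. Ciita stood at 92.6 CPM in LNP-cGAMP, 73.2 CPM in anti-PD-L1, 64.6 CPM in the combination and 98.3 CPM in PBS, a difference short of the call in each. With clusters in place of gates, 0 members were called lower under anti-PD-L1 or the combination. The subset with neither high Ccr7 nor Xcr1 or Clec9a held 19 cells in LNP-cGAMP, 22 in anti-PD-L1, 22 in the combination and 39 in PBS. There H2-Ab1 was at 6421 CPM in LNP-cGAMP, 4310 CPM in anti-PD-L1, 4678 CPM in the combination and 8297 CPM in PBS. Cd74 was at 22000, 15220, 14370 and 28540 CPM in that order, and H2-DMa at 625, 541, 625 and 1027 CPM. In this subset the anti-PD-L1 and combination libraries thus lay further below PBS than over the whole gate. In Xcr1 or Clec9a cells, by contrast, H2-Ab1 was close to PBS in all 3 treated libraries. Ccr7-high cells had more H2-Ab1 in LNP-cGAMP (4040 CPM) and the combination (3992 CPM) than in PBS (1878 CPM), with anti-PD-L1 near PBS (1977 CPM). H2-Aa in Ccr7-high cells was at 10260 CPM in LNP-cGAMP, 6492 CPM in anti-PD-L1, 9486 CPM in the combination and 5897 CPM in PBS. H2-DMb2 in the subset with neither marker set was at 260 CPM in LNP-cGAMP, 282 CPM in anti-PD-L1, 235 CPM in the combination and 627 CPM in PBS. In Xcr1 or Clec9a cells it was at 371, 239, 227 and 299 CPM in that order, and in Ccr7-high cells at 162, 261, 87.0 and 128 CPM, so its lower level did not hold in every subset. The subsets are small and were not called.

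Other genes of antigen handling were called higher in LNP-cGAMP dendritic cells, in a comparison where 15.3% of all 3673 genes were called higher and 12.6% lower. Of 7 peptide-processing genes 5 were called higher against PBS, among them Lgmn, an endosomal protease, at 764 CPM in LNP-cGAMP and 228 CPM in PBS (log2 1.70). All 3 class I genes examined were higher, with H2-K1 at 5263 CPM in LNP-cGAMP and 2464 CPM in PBS (log2 1.09). Of 5 costimulation genes 3 passed the filter and all 3 were higher; Cd86, a ligand of CD28, had 293 CPM in LNP-cGAMP and 129 CPM in PBS. Of 13 class II regulators 8 passed the filter, of which 3 were called higher and 0 lower, at a median log2 ratio of 0.10. Irf1, which acts upstream of Ciita, was 1 of the 3 (405 CPM in LNP-cGAMP and 219 CPM in PBS). H2-Ab1 in these same cells had a log2 ratio of -0.14.

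Vcan/Ccr2 cells of the LNP-cGAMP library had lower class II levels than those of PBS, as did gated neutrophils and T cells. Of the 6 members that passed the filter, 5 were called lower and 0 higher, in a comparison where 3.34% of 3178 genes were called lower and 6.42% higher. H2-Ab1 was at 164 CPM in LNP-cGAMP and 710 CPM in PBS (ratio 0.231, 0.212 to 0.252; log2 -2.05). H2-Aa was at 239 CPM in LNP-cGAMP and 997 CPM in PBS (log2 -2.02), H2-Eb1 at 138 and 621 CPM (log2 -2.10), and Cd74 at 976 and 3697 CPM (log2 -1.91). H2-DMb1 was at 91.1 CPM in LNP-cGAMP and 189 CPM in PBS (log2 -0.98). H2-DMa was the exception, at 201 CPM in LNP-cGAMP and 241 CPM in PBS (log2 -0.25). The ratio of H2-DMa to H2-Ab1 UMIs was thus 1.22 (1.10 to 1.36) in LNP-cGAMP and 0.339 (0.317 to 0.362) in PBS. Ciita, below the filter, had 11 UMIs in LNP-cGAMP and 44 in PBS, at 2.86 and 8.68 CPM (ratio 0.329, 0.153 to 0.647). The median log2 ratio of the measured members was -1.96 in Vcan/Ccr2 cells. In neutrophils it was -2.77 (6 of 6 lower, 10.5% of genes) and in T cells -2.28 (7 of 7 lower, 6.07% of genes). In barcodes of 10 to 100 UMIs, which are near-empty, H2-Ab1 was at 275 CPM in LNP-cGAMP and 595 CPM in PBS. How far the lower level is particular to Vcan/Ccr2 cells was not tested.

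The Vcan/Ccr2 cells of LNP-cGAMP were not low in class I RNA. All 3 class I genes were called higher in LNP-cGAMP Vcan/Ccr2 cells (H2-K1 at 3399 CPM in LNP-cGAMP and 1602 CPM in PBS, log2 1.08). Of 7 peptide-processing genes 1 was called higher and 0 lower. In this comparison 6.42% of all 3178 genes were called higher and 3.34% lower. Ifng, the main inducer of Ciita in macrophages, was at or under 0.260 CPM in Vcan/Ccr2 cells of each library. In gated T cells it was at 91.2 CPM in LNP-cGAMP, 52.2 CPM in anti-PD-L1, 191 CPM in the combination and 48.7 CPM in PBS.

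The lower LNP-cGAMP level went with fewer cells of very high class II content. Cells with more than 100 UMIs of the 9 genes per 10000 were 4.23% of Vcan/Ccr2 cells in LNP-cGAMP (9 cells) and 15.9% in PBS (49 cells). The median cell differed less, at 3.55 per 10000 in LNP-cGAMP and 5.58 in PBS, and the 10% of cells highest in class II held 73.7% of the 9-gene UMIs in LNP-cGAMP and 66.9% in PBS. The share of cells with an H2-Ab1 UMI was 29.1% (95% interval 23.1 to 35.7) in LNP-cGAMP and 55.2% (49.5 to 60.8) in PBS. Thinned to 3000 UMIs per cell it was 13.3% in LNP-cGAMP and 33.3% in PBS. In neutrophils, where class II RNA should be scarce, the share thinned in the same way was 3.77% in LNP-cGAMP and 14.0% in PBS. Thinning uses only cells with at least 3000 UMIs, which leaves out most neutrophils (medians of 2510 and 2125 UMIs per cell). Unthinned, over all neutrophils, the shares were 4.45% and 10.3%. After subtraction of free RNA 5 members were again called lower in Vcan/Ccr2 cells. The free share (8.36% in LNP-cGAMP and 4.60% in PBS) was set by counting all S100a8 and S100a9 RNA of the gate as free. Any such RNA made by the cells themselves would put it off. The dendritic genes Flt3, Zbtb46, Xcr1 and Clec9a together were at 0.260 CPM in LNP-cGAMP and 2.37 CPM in PBS Vcan/Ccr2 cells. In the dendritic gate they were at 185 and 258 CPM. These genes are only part of the dendritic markers, and whether dendritic cells in the Vcan/Ccr2 gate bear on the difference was not tested. Median mitochondrial shares were 1.73% in LNP-cGAMP and 3.37% in PBS cells. Their part in the result was not tested.

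With anti-PD-L1 alone the summed level of Vcan/Ccr2 cells was near that of PBS, while the median cell was higher. Of 6 members 0 were called higher and 1, H2-Eb1, lower (390 CPM in anti-PD-L1, 621 CPM in PBS; log2 -0.66), against 1.7% and 1.42% of genes. H2-Ab1 was at 620 CPM in anti-PD-L1 and 710 CPM in PBS (log2 -0.19). The median cell, by contrast, had 16.6 UMIs of the 9 genes per 10000 in anti-PD-L1 and 5.58 in PBS, and the upper 10% of cells began at 159 in anti-PD-L1 and 203 in PBS. With each cell weighted equally, 2 members were called higher and 0 lower.

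Over the whole Vcan/Ccr2 gate the combination lay between its single agents for the 6 measured members, while Ciita had too few UMIs to be placed against LNP-cGAMP. Against PBS, 4 of 6 members were called lower and 0 higher in Vcan/Ccr2 cells, where 1.35% of genes were lower and 3.08% higher. H2-Ab1 was at 369 CPM in the combination and 710 CPM in PBS (log2 -0.93). H2-DMa (log2 0.23) and H2-DMb1 (log2 -0.14) were not called. Against LNP-cGAMP, 5 of 6 were higher and 0 lower, beside 0.755% and 1.54% of genes; H2-Ab1 had a ratio of 2.25 (2.05 to 2.46). With other processing its log2 ratio ran from 0.90 (each cell weighted equally) to 3.16 (clusters in place of gates), beside 1.12 as reported. Against anti-PD-L1, 0 were higher and 5 lower, beside 1.6% and 0.975%; H2-Ab1 had a ratio of 0.595 (0.565 to 0.628). Ciita was at 2.47 CPM in the combination (12 UMIs), beside 2.86 CPM with LNP-cGAMP (11 UMIs) and 9.79 CPM with anti-PD-L1 (93 UMIs), and its ratio to LNP-cGAMP was 0.864 (0.349 to 2.16). These comparisons share libraries and are not independent of each other. Sex differs as well, with 208 female-called and 13 male-called combination cells beside 188 male-called LNP-cGAMP cells. In male-called cells alone, H2-Aa, H2-Ab1, H2-Eb1 and Cd74 again lay between. H2-Ab1 was at 163 CPM in LNP-cGAMP, 316 CPM in the combination and 649 CPM in anti-PD-L1. H2-DMa and H2-DMb1 lay below both agents, at 140 and 58.7 CPM beside 204.5 and 93.9 CPM in LNP-cGAMP. The 13 cells are too few for a call.

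**Figure D2:**
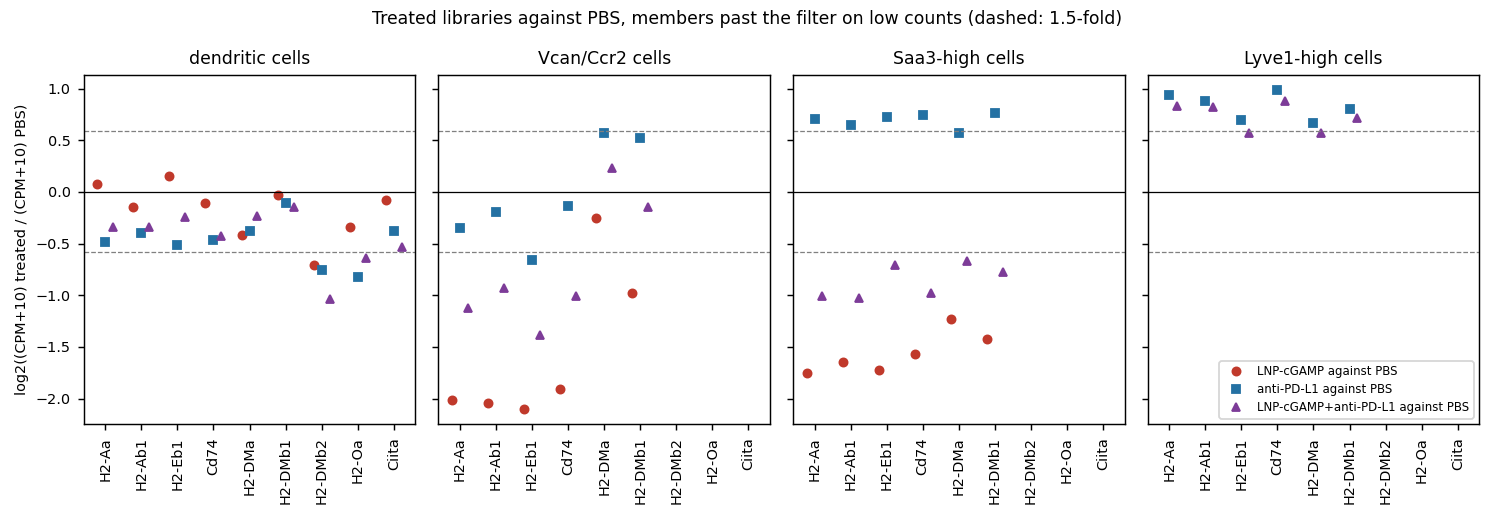
Log2 ratio of each treated library to PBS, on the log2((CPM + 10)/(CPM + 10)) scale, for members past the filter in 4 gates; dashed lines mark 1.5-fold. In Vcan/Ccr2 and Saa3-high cells the LNP-cGAMP points of H2-Aa, H2-Ab1, H2-Eb1 and Cd74 lie lowest, at -1.57 or below; in Lyve1-high cells the anti-PD-L1 and combination points all lie above 0, and LNP-cGAMP has too few cells there to be drawn.

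Saa3-high macrophages, named for an acute-phase protein gene, had lower class II levels under LNP-cGAMP and higher levels under anti-PD-L1. The gate held 786 cells in LNP-cGAMP, 105 in anti-PD-L1, 628 in the combination and 43 in PBS, so the PBS side is thin. Being a fixed cut on Saa3, it took in 20.5% of LNP-cGAMP, 3.09% of anti-PD-L1, 17.8% of combination and 1.52% of PBS cells. In its male-called cells Saa3 was at 12530 CPM in LNP-cGAMP and 5235 CPM in PBS. Whether the gate holds the same kinds of macrophage in each library was not tested. Under LNP-cGAMP all 6 measured members were called lower and 0 higher, where 12.7% of 3386 genes were lower and 14.6% higher. H2-Ab1 was at 211 CPM in LNP-cGAMP and 681 CPM in PBS (log2 -1.65), Cd74 at 808 and 2414 CPM (log2 -1.57), and H2-DMa at 102 and 253 CPM (log2 -1.23). Under anti-PD-L1, 5 were called higher and 0 lower, against 4.19% and 3.34% of genes. H2-Ab1 was at 1070 CPM in anti-PD-L1 and 681 CPM in PBS (log2 0.64), and Cd74 at 4054 and 2414 CPM (log2 0.75). In male-called cells alone the gap was smaller, with H2-Ab1 at 793 CPM in anti-PD-L1 (18 cells) and 678 CPM in PBS (38 cells). H2-Aa was there at 920 and 780 CPM, Cd74 at 3247 and 2436 CPM, and H2-DMa at 258.5 and 254 CPM. The 18 cells are too few for a call, and 80 of the anti-PD-L1 cells were female-called. Ciita, below the filter, had 1.61 CPM in LNP-cGAMP, 18.4 CPM in anti-PD-L1, 2.92 CPM in the combination and 8.85 CPM in PBS. A Ciita UMI was found in 3.05% (1.97 to 4.51) of LNP-cGAMP, 45.7% (36.0 to 55.7) of anti-PD-L1, 5.25% (3.64 to 7.30) of combination and 30.2% (17.2 to 46.1) of PBS cells of this gate. Median UMIs per cell were 22353, 43382, 21797 and 37203 in that order, and thinned to 3000 UMIs the shares were 0.5%, 5.05%, 0.552% and 2.88%. The share of neutrophils with a Ciita UMI was at most 0.352% in any library. Median mitochondrial shares of Saa3-high cells were 1.08% in LNP-cGAMP, 3.31% in anti-PD-L1, 1.81% in the combination and 3.64% in PBS, and their part in these differences was not tested.

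In the combination, Saa3-high cells had all 6 members called lower and 0 higher than PBS (7.44% and 8.36% of genes), with H2-Ab1 at 329 CPM in the combination and 681 CPM in PBS (log2 -1.03). Against anti-PD-L1, 6 were lower and 0 higher (9.21% and 10.3% of genes; H2-Ab1 log2 -1.67). Against LNP-cGAMP, 5 were higher and 0 lower (4.02% and 1.71% of genes), with H2-Ab1 at 329 CPM in the combination and 211 CPM in LNP-cGAMP (log2 0.62). The median Saa3-high cell of the combination had 4.37 UMIs of the 9 genes per 10000, close to the 4.32 of LNP-cGAMP, beside 79.4 for anti-PD-L1 and 34.95 for PBS. The 10% of cells highest in class II held 75.5% of the 9-gene UMIs in the combination and 57.0% in LNP-cGAMP. With each cell weighted equally 1 member was called higher in the combination than in LNP-cGAMP. The last direction did not hold in all cells: it turned for 3 members with clusters in place of gates and for 5 members in male-called cells.

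The combination pool was split by sex call, which there also separates different mice. Its female-called Saa3-high cells (161) had H2-Ab1 at 695 CPM and its male-called cells (276) had it at 81.3 CPM, a ratio of 8.55 (7.78 to 9.41). Cd74 was at 2540 CPM in the female-called and 305 CPM in the male-called cells (8.33, 7.94 to 8.75), and H2-Eb1 at 406 and 36.0 CPM. Ciita had 31 UMIs in the female-called cells and 0 in the male-called cells, which allows up to 0.596 CPM (exact 95% upper limit). Saa3 itself ran the other way, at 7664 CPM in the female-called and 25090 CPM in the male-called cells, and Isg15, an interferon-stimulated gene, was at 373 and 99.5 CPM. Median UMIs per cell were 26260 in female-called and 20990 in male-called cells. For comparison, male-called cells had H2-Ab1 at 217 CPM in LNP-cGAMP (710 cells), 793 CPM in anti-PD-L1 (18 cells) and 678 CPM in PBS (38 cells), and female-called cells had 1133 CPM in anti-PD-L1 (80 cells). In Vcan/Ccr2 cells of the combination the female-called to male-called ratio of H2-Ab1 was 1.35 (1.06 to 1.74; 208 and 13 cells). In macrophages of no named gate it ran the other way, at 582 CPM in 630 female-called and 787 CPM in 60 male-called cells of the combination (0.739, 0.690 to 0.793), with 0.498 (0.464 to 0.535) for H2-Eb1 and 0.969 for Cd74. The 4 libraries as a whole ran from 211 to 1070 CPM of H2-Ab1 in Saa3-high cells. Sex and individual mouse cannot be told apart here.

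**Figure D3:**
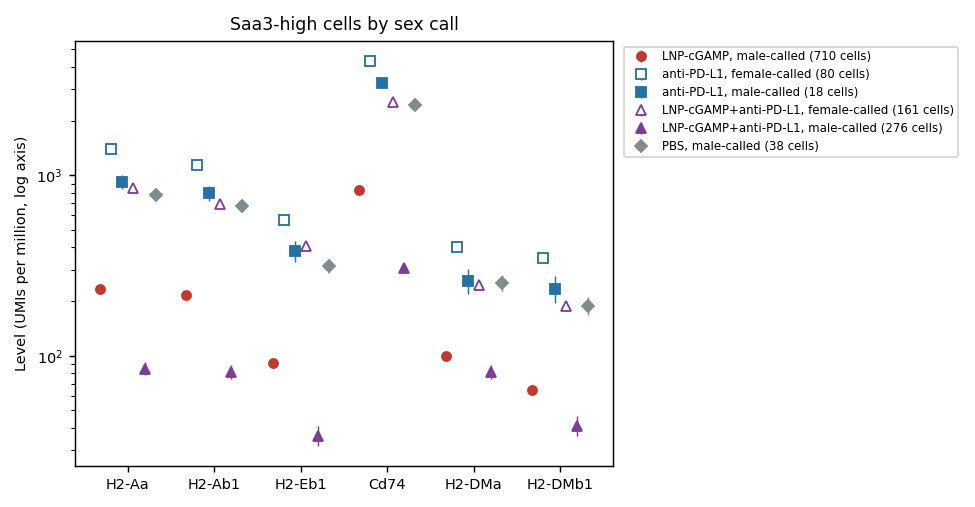
Levels of 6 members (CPM, log axis) in Saa3-high cells split by sex call, with exact 95% Poisson intervals for counting error; open markers are female-called and filled markers male-called cells, and splits with fewer than 10 cells are left out. Female-called combination cells lie near PBS (695 and 678 CPM for H2-Ab1), and male-called combination cells lie lowest for every gene drawn, at 81.3 CPM for H2-Ab1.

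Lyve1-high macrophages had more class II RNA in both libraries that received anti-PD-L1, which are also the pools with mice of both sexes. Under anti-PD-L1 all 6 measured members were called higher and 0 lower than PBS, where 1.43% of 3291 genes were higher and 0.638% lower. H2-Ab1 was at 340 CPM in anti-PD-L1 (592 cells) and 180 CPM in PBS (597 cells), a ratio of 1.89 (1.82 to 1.95). Cd74 was at 1438 CPM in anti-PD-L1 and 723 CPM in PBS (1.99, 1.96 to 2.02). H2-DMa, at 221 and 135 CPM, was 1.63-fold (1.57 to 1.70). Under the combination 4 were called higher and 0 lower, against 2.52% and 1.19%, with H2-Ab1 at 325 CPM in the combination (405 cells) and 180 CPM in PBS (1.80, 1.74 to 1.87). H2-Eb1 and H2-DMa had log2 ratios of 0.57 in the combination, just short of the call. Between the combination and anti-PD-L1 the members differed little (H2-Ab1 ratio 0.956, 0.926 to 0.987).

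The median cell differed as well as the sum. The median Lyve1-high cell had 17.4 UMIs of the 9 genes per 10000 in anti-PD-L1, 15.0 in the combination and 4.17 in PBS. Cells above 100 per 10000 were 3.38%, 2.96% and 2.01% in that order. The share of cells with an H2-Ab1 UMI was 89.7% (87.0 to 92.0) in anti-PD-L1, 88.6% (85.1 to 91.6) in the combination and 80.2% (76.8 to 83.4) in PBS, and thinned to 3000 UMIs 48.0% in anti-PD-L1, 46.5% in the combination and 28.0% in PBS. Ciita had 8.28 CPM in anti-PD-L1 (242 UMIs), 5.23 CPM in the combination (98 UMIs) and 2.96 CPM in PBS (86 UMIs), a ratio to PBS of 2.79 (2.18 to 3.62) for anti-PD-L1 and 1.76 (1.31 to 2.39) for the combination. A Ciita UMI was found in 25.8% (22.4 to 29.6) of anti-PD-L1, 17.5% (14.0 to 21.6) of combination and 10.2% (7.91 to 12.9) of PBS cells. None of the 5 measured class II regulators, of the 7 peptide-processing genes or of the 3 class I genes was called in either comparison. Depth was alike, at medians of 50115, 47746 and 47934 UMIs, as were mitochondrial shares (3.27%, 3.36% and 3.32%). In anti-PD-L1 H2-Ab1 was at 306 CPM in female-called and 405 CPM in male-called Lyve1-high cells, both above PBS. In the combination 359 Lyve1-high cells were female-called (H2-Ab1 at 319.7 CPM) and fewer than 10 male-called. PBS had 539 male-called cells (178.5 CPM), so for the combination treatment and sex cannot be told apart in this gate. The LNP-cGAMP library had only 15 Lyve1-high cells, with H2-Ab1 at 236 CPM, and was not compared.

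**Figure D4:**
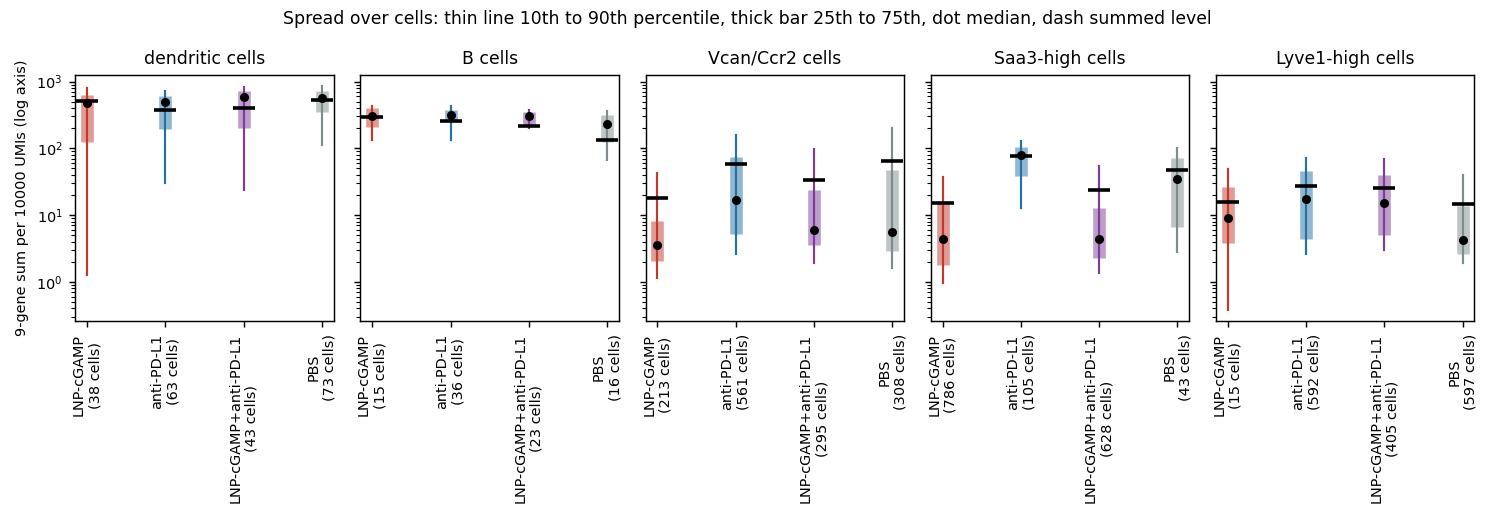
Spread of the summed 9-gene level over single cells (UMIs of the 9 genes per 10000 UMIs, log axis) by gate and library: dot, median; thick bar, 25th to 75th percentile; thin line, 10th to 90th percentile; dash, level of the summed cells. In Vcan/Ccr2 cells of PBS the median (5.58) lies far below the summed level (64.8), and in Lyve1-high cells the anti-PD-L1 and combination medians (17.4 and 15.0) lie above that of PBS (4.17).

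Within macrophage and dendritic gates, cells with a Ciita UMI were higher in the other class II genes. In each macrophage gate and library with Ciita-positive cells, these had a higher median of the other 8 genes than the Ciita-negative cells. In Vcan/Ccr2 cells the medians per 10000 UMIs, among cells with at least 3000 UMIs, were 74.7 with Ciita (8 cells) and 3.37 without in LNP-cGAMP, 100.4 (67 cells) and 13.1 in anti-PD-L1, 69.2 (10 cells) and 5.53 in the combination, and 236 (25 cells) and 5.19 in PBS. In Lyve1-high cells they were 40.6 with Ciita and 11.4 without among anti-PD-L1 cells, 33.4 and 11.7 among combination cells, and 32.5 and 3.80 among PBS cells. Ciita-positive Lyve1-high and Saa3-high cells were deeper in every library with both medians, at 46070 UMIs with and 21960 without in combination Saa3-high cells. Vcan/Ccr2 cells were mixed, at 21210 UMIs with and 14410 without in PBS and 15860 with and 18320 without in LNP-cGAMP. Dendritic cells with Ciita were deeper except in the combination (17790 with and 19480 without). The part of depth was not tested. Among dendritic cells the medians of the other 8 genes were 584 with Ciita and 348 without for LNP-cGAMP, 552 and 210 for anti-PD-L1 cells, 606 and 131 for combination cells, and 639 and 302 for PBS cells. B cells of anti-PD-L1 differed little, at 319 with Ciita (14 cells) and 315 without (18 cells).

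Over 25 points, each a cell type in 1 library with at least 50 cells, the level of H2-Ab1 correlated most with its partners H2-Aa (Pearson r 0.998), Cd74 (0.985) and H2-Eb1 (0.983), and less with H2-DMb1 (0.941), Ciita (0.897), H2-DMa (0.871), H2-DMb2 (0.790) and H2-Oa (0.695). Among the 5042 genes that reached 50 CPM in some point, those outside the group most like H2-Ab1 included Rgs10 (0.866), Haghl, Avpi1, Syngr2, Fam98c, Uap1 and Itm2c. The 8 most like Ciita were Avpi1 (0.944), Ramp3, Timd4, Vdr, Bcl11a, H2-Ob, Adrbk2 and Tmem176a (0.900). No B cell gate reached 50 cells, and the dendritic gate did so only in anti-PD-L1 (63 cells) and PBS (73 cells). The correlations thus leave out B cells. The points share libraries and depth, so these values describe the table and carry no p-value.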

How the data were processed

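The deposited matrices hold raw UMI counts per gene and barcode. Per the file headers, the authors made these counts in Cell Ranger, version 3.0.2, and the submitters' processing notes name mm10. The labels give kit v2 in one place and v3 in another, which was not settled. Levels are per gene of a 3' assay, so no length correction applies.

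Barcodes were kept above the valley of the UMI density between 300 and 5000 UMIs (898 to 1106), with at least 200 genes and at most 10% mitochondrial UMIs. Per 10000 UMIs, gates needed macrophage markers of at least 50 and then Lyve1 of at least 2, Vcan and Ccr2 of at least 3 each, or Saa3 of at least 20; cells in more than 1 gate were left out. B cells needed 3 markers, and dendritic cells 1 marker (Naaa not used) with macrophage markers under 30. Thresholds were set after the marker distributions, not the member values, had been seen, and many cells lie near them. For Vcan/Ccr2, 75 to 167 cells a library were just inside. Ighd, Trac and H2-Ea-ps were not in the gene table. Class sums were turned into CPM; exact Poisson and Clopper-Pearson intervals cover counting error only. Shares were thinned to 1000 and 3000 UMIs, over the cells with at least that many UMIs. No doublet caller was run. Named genes are the 9 members, fixed related lists and the 8 most alike genes. Members and lists were chosen with earlier results of these data known. Ratios were checked on simulated counts. Software was Python 3.11.15 with numpy 2.4.6, scipy 1.17.1 and scanpy 1.11.5, and edgeR 4.0.16 in R 4.3.3 for TMM factors. Alternatives tried were TMM scaling, 2000 UMIs per cell, 5% mitochondrial UMIs, cells weighted equally, Leiden clusters, doubled marker minima, free RNA subtracted, male-called cells, pseudocounts of 1 and 50 CPM and no low-count filter; leaving out shared barcodes was added later. Some genes of these lists are not reported here.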

Additional observations from a re-analysis of the deposited data

Results flagged for a closer look

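In the combination library, 4 members were called in one direction against PBS in Lyve1-high macrophages and in the other direction in Vcan/Ccr2 or Saa3-high cells. On the log2((CPM + 10)/(CPM + 10)) scale, H2-Ab1 was at 0.82 in Lyve1-high cells, -0.93 in Vcan/Ccr2 cells and -1.03 in Saa3-high cells. H2-Aa was at 0.83, -1.12 and -1.003 in these gates, in that order, and Cd74 was at 0.88, -1.003 and -0.97. H2-DMb1 was at 0.71 in Lyve1-high and -0.78 in Saa3-high cells. In the anti-PD-L1 library H2-Eb1, the I-E beta chain, was at 0.69 in Lyve1-high cells and 0.72 in Saa3-high cells, against -0.66 in Vcan/Ccr2 cells. With 1 library a treatment, these differences between cell types were not tested. The Saa3-high values also rest on 43 PBS cells and on a combination pool whose female-called cells (695 CPM for H2-Ab1) and male-called cells (81.3 CPM) lie on different sides of the whole combination gate (329 CPM).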

How the results depend on the processing

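No paired analysis was possible because each treatment has 1 library, and for the same reason no replicate could be left out. Under LNP-cGAMP, 5 members were lower and 0 higher than PBS in Vcan/Ccr2 cells under every alternative run, with the log2 ratio of H2-Ab1 between -4.06 (clusters in place of gates) and -1.60 (each cell weighted equally). In Lyve1-high cells H2-Ab1 stayed between 0.76 and 1.14 for anti-PD-L1 and between 0.70 and 0.85 for the combination. The combination range holds no male-called value, for want of male-called cells. Counts that differed by more than 1.5 times are given next. In Vcan/Ccr2 cells, anti-PD-L1 against PBS, members called higher were 0 as reported, 1 with TMM scaling, a 5% mitochondrial limit, clusters, free RNA subtracted or a pseudocount of 1, and 2 with equal weight or doubled marker minima; members called lower were 1 as reported and 0 with equal weight, clusters or male-called cells. In dendritic cells, members called lower under LNP-cGAMP were 1 as reported and 3 with equal weight or male-called cells. Under anti-PD-L1 they were 2 as reported, 1 with equal weight or doubled minima and 0 with clusters. Under the combination they were 2 as reported, 1 with equal weight or a pseudocount of 50, and 0 with clusters. In Saa3-high cells, combination against LNP-cGAMP, members called higher were 5 as reported, 1 with equal weight or doubled minima, 2 with a pseudocount of 50, and 0 with clusters or male-called cells. With clusters the log2 ratio there was -0.26 for H2-Aa, -0.34 for H2-Ab1 and -0.33 for Cd74. In male-called cells 4 members were called lower, with -1.36 for H2-Aa, -1.31 for H2-Ab1, -1.14 for H2-Eb1, -1.41 for Cd74 and -0.55 for H2-DMb1. The causes were not tested. Clusters, doubled minima and male-called cells left too few cells for some comparisons, which then have no value. H2-Oa and H2-DMb2 could not be compared between treatments in the macrophage gates at this depth.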

Other observations

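Macrophages that fell in none of the 3 named gates carried class II RNA as well. They numbered 781 in LNP-cGAMP, 706 in anti-PD-L1, 925 in the combination and 668 in PBS. H2-Ab1 was at 233 CPM in LNP-cGAMP, 784 CPM in anti-PD-L1, 548 CPM in the combination and 651 CPM in PBS. Against PBS its log2 ratio was -1.44 with LNP-cGAMP, 0.26 with anti-PD-L1 and -0.25 with both. H2-DMa, a chain of the peptide-loading molecule DM, had a log2 ratio of -0.22 under LNP-cGAMP, closer to 0 than H2-Eb1 (-1.58) and Cd74 (-1.21), as was also seen in Vcan/Ccr2 cells. Ciita was at 2.28 CPM in LNP-cGAMP, 9.64 CPM in anti-PD-L1, 4.81 CPM in the combination and 6.23 CPM in PBS.

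Gated T cells held class II RNA in very few cells. The 10% of T cells with most of it held 95.7% of the 9-gene UMIs in LNP-cGAMP, 95.6% in anti-PD-L1, 93.1% in the combination and 97.4% in PBS, and the median T cell had 0.615, 1.53, 1.21 and 2.63 UMIs of the 9 genes per 10000 in that order. No doublets were removed, and their part in these cells was not tested. No gated NK cell in any library passed 100 UMIs per 10000.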
